A study of Sus scrofa with 6 samples.

Results

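A set of 10 genes that drive or restrain the growth of blood and lymph vessels was followed in the ampulla of the pig (Sus scrofa) oviduct, the segment in which fertilisation takes place. They are the angiogenesis inhibitor VASH1; the growth factors VEGFA and VEGFC; the VEGF receptors FLT1, KDR and FLT4 with the co-receptor NRP1; and the receptor TEK with its ligands ANGPT1 and ANGPT2. The 10 genes were picked by symbol, and all 10 had a row among the 35670 genes of the count table and passed the filter on low counts. VASH1 entered the set because its difference between the stages had one of the lowest p-values in an earlier look at these libraries. Differences of the 10 genes between the stages are therefore given as a description, with no p-value.

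Polyadenylated RNA of the ampulla of female pigs was counted at the early luteal stage (3 libraries), when the corpora lutea form, and at the post-ovulatory stage (3 libraries). The labels name no treatment, breed or age, and they do not say whether each library is a different animal. The p-values below reflect only the spread among the libraries, which may be technical. The question that the design poses is how the ampulla at the early luteal stage differs from that just after ovulation.

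Vessel growth is set by a balance of secreted signals. VEGFA acts on endothelial cells mainly through KDR, while FLT1 binds VEGFA tightly and signals weakly, so that it can act as a decoy. VEGFC and its receptor FLT4 serve lymphatic vessels above all, and NRP1 is a co-receptor that strengthens signalling through KDR. ANGPT1, made by cells around the vessel, activates TEK and steadies the endothelium, whereas ANGPT2, released by endothelial cells, can oppose it. VASH1 is an inhibitor that endothelial cells make in response to VEGF, and its protein also removes the last tyrosine of alpha-tubulin. In the female reproductive tract, unlike most adult tissues, vessels are remodelled in each cycle.

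Library totals ran from 8342520 to 14785020 counts in early luteal and from 7370723 to 30954222 in post-ovulatory tissue. Levels are given as CPM, counts scaled to the TMM-adjusted library total (times 1e6), and 3 counts, the floor of a library, corresponded to 0.0959 to 0.406 CPM. CPM is not set per length of transcript, so levels are compared between libraries and not between genes. Where a gene is called low or the most abundant of a list, this refers to its CPM and not to its number of transcripts. Early luteal replicate 2 was set off from the remaining 5 libraries (first principal component 176, against -51.0 to 2.39). The epithelial markers EPCAM (384.6 to 1093 CPM) and FOXJ1 (79.3 to 654 CPM) were present in every library, which fits the labelled tissue. The defining endothelial markers PECAM1 (12.5 to 87.8 CPM) and CDH5 (14.9 to 58.6 CPM) were present in every library too.

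VASH1 and both VEGF ligands were lower in early luteal tissue, together with the receptor FLT1, and in these 4 genes the highest early luteal library stayed under the lowest post-ovulatory one. KDR, the main signalling receptor for VEGFA, did not share that pattern and was 1.42-fold higher on average, with overlap between the stages. FLT4, TEK, ANGPT1, ANGPT2 and NRP1 overlapped as well. Over all 17920 tested genes, 9.57% lay wholly lower and 7.61% wholly higher in early luteal tissue. Of the 10 genes 4 lay wholly lower and 0 wholly higher, and nothing is read from that count because the choice of genes used this contrast. The median log2 fold change (early luteal over post-ovulatory) was -0.67 over the 10 genes and -0.03 over all tested genes. For the same reason nothing is read from that median.

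**Figure D1:**
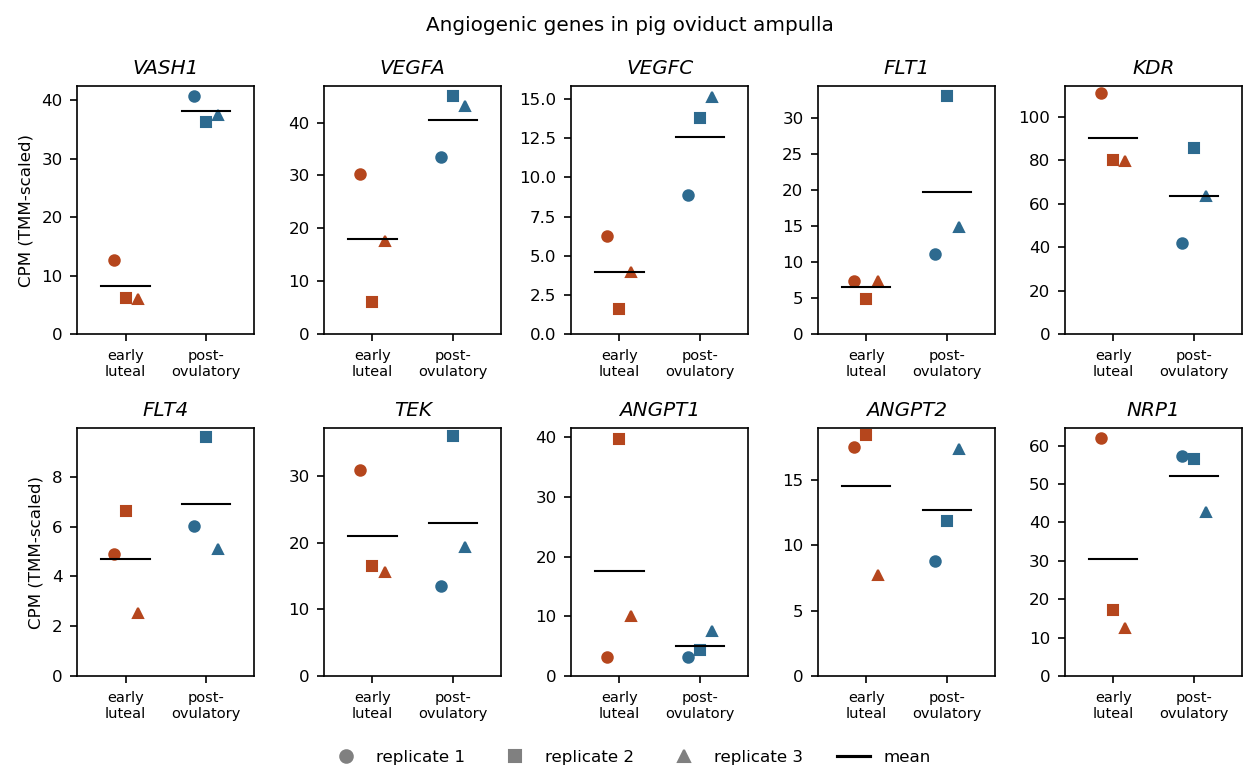
Level of each of the 10 genes in CPM (linear axis from 0) in the 3 early luteal and 3 post-ovulatory libraries; symbols mark the replicate and the bar is the mean. VASH1, VEGFA, VEGFC and FLT1 show no overlap between the stages, and ANGPT1 reaches 39.7 CPM in early luteal replicate 2 alone.

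At a Benjamini-Hochberg adjusted p of 0.05, the quasi-likelihood test of edgeR called 0 of 17920 genes (0%). At an unadjusted p under 0.05 it counted 1275 of them (7.11%). DESeq2 called 175 of 17740 genes (0.986%), and limma voom with quality weights called 10 genes.

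VASH1 (ENSSSCG00000002389; Sscrofa11.1 chromosome 7, 99910644 to 99933633) stood at 12.7, 6.23 and 5.92 CPM in early luteal replicates 1, 2 and 3. Post-ovulatory replicates 1, 2 and 3 stood at 40.7, 36.2 and 37.6 CPM. The post-ovulatory libraries lay close together, whereas early luteal replicate 1 lay above the other two of its stage. The means were 8.28 ± 3.82 CPM in early luteal ampullae and 38.2 ± 2.30 CPM in post-ovulatory ampullae (SD, n = 3 each), a 4.59-fold lower level in early luteal tissue (log2 fold change -2.20 ± 0.39, SE). These values rest on 332 early luteal and 2009 post-ovulatory counts. The spread of VASH1 among the post-ovulatory libraries (SD 0.086 in log2 CPM) was small beside the median of all tested genes (0.36). Among the early luteal libraries its spread (0.61) was close to that median (0.60). VASH1 was chosen by its p-value in these libraries, which favours a small spread within a stage, so nothing is read from these spreads. With each library left out in turn the log2 fold change ran from -2.64 (without early luteal replicate 1) to -2.01 (without early luteal replicate 3).

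The RefSeq interval of VASH1 overlaps the end of a neighbouring gene, ANGEL1, and a long non-coding RNA, and reads of overlapping genes can be split or shared where counting ignores strand. ANGEL1 stood at 12.9 ± 8.15 CPM in early luteal ampullae and 21.1 ± 4.66 CPM in post-ovulatory ampullae (SD, n = 3 each), with overlap between the stages. The part of this overlap in the VASH1 counts was not tested.

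VEGFA (ENSSSCG00000001695; chromosome 7, 38746393 to 38762282), the central ligand of vessel growth, stood at 30.3, 6.10 and 17.6 CPM in early luteal replicates 1, 2 and 3. The post-ovulatory replicates stood at 33.4, 45.0 and 43.2 CPM. The gap between the stages was narrow, with early luteal replicate 1 just below post-ovulatory replicate 1, and it closed when CPM was computed from library totals alone. The mean was 18.0 ± 12.1 CPM in early luteal ampullae and 40.5 ± 6.21 CPM in post-ovulatory ampullae (log2 fold change -1.16 ± 0.52, SE). The size of the change depended on the early luteal library left out: the log2 fold change was -1.76 without replicate 1 and -0.76 without replicate 2.

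VEGFC (ENSSSCG00000015770; chromosome 15, 39037764 to 39136234), the ligand of lymphatic growth, stood at 6.25, 1.63 and 3.99 CPM in the early luteal replicates. In the post-ovulatory replicates it stood at 8.86, 13.8 and 15.2 CPM. It was thus low in all early luteal libraries and lowest in replicate 2, where it rested on 12 counts. The means were 3.95 ± 2.31 CPM in early luteal ampullae and 12.6 ± 3.31 CPM in post-ovulatory ampullae, a 3.15-fold lower level in early luteal tissue (log2 fold change -1.65 ± 0.57, SE).

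The 3 VEGF receptors did not share a direction. FLT1 (ENSSSCG00000009320; chromosome 11, 5620698 to 5797095), the decoy-like receptor, stood at 7.34, 4.88 and 7.38 CPM in the early luteal replicates, against 11.2, 33.1 and 14.9 CPM in the post-ovulatory ones. The early luteal libraries were alike, and post-ovulatory replicate 2 lay far above the others of its stage. The log2 fold change was -1.58 ± 0.50 (SE), and -1.01 without post-ovulatory replicate 2.

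KDR (ENSSSCG00000008844; chromosome 8, 41809116 to 41856379), the main signalling receptor, stood at 110.6, 79.9 and 79.3 CPM in the early luteal replicates. The post-ovulatory replicates stood at 41.6, 85.5 and 63.2 CPM. Early luteal replicate 1 was the highest and post-ovulatory replicate 1 the lowest, while post-ovulatory replicate 2 reached into the early luteal range. The means were 90.0 ± 17.9 CPM in early luteal ampullae and 63.5 ± 21.9 CPM in post-ovulatory ampullae (log2 fold change 0.50 ± 0.32, SE), and leaving out single libraries gave 0.26 to 0.77.

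FLT4 (ENSSSCG00000014007; chromosome 2, 78076008 to 78115137), the receptor of VEGFC, was low in all libraries, at 4.90, 6.64 and 2.53 CPM in the early luteal and 6.03, 9.60 and 5.12 CPM in the post-ovulatory replicates. The stages overlapped, and its log2 fold change of -0.56 was as large as its SE of 0.56. NRP1 (ENSSSCG00000011102; chromosome 10, 56280673 to 56430832), the co-receptor, stood at 62.1, 17.1 and 12.4 CPM in the early luteal replicates and at 57.3, 56.5 and 42.7 CPM in the post-ovulatory ones. Early luteal replicate 1 was the highest of all 6 libraries and the other two of its stage the lowest. The log2 fold change of NRP1 was -0.77 ± 0.57 (SE), and it was -1.80 without early luteal replicate 1.

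The angiopoietin genes and their receptor overlapped between the stages. TEK (ENSSSCG00000005122; chromosome 1, 195938177 to 196052294), the angiopoietin receptor, stood at 30.9, 16.5 and 15.7 CPM in the early luteal replicates and at 13.5, 36.1 and 19.4 CPM in the post-ovulatory ones. No stage was the higher one: the log2 fold change was -0.12 ± 0.46 (SE), and it was positive without early luteal replicate 2 (0.03), early luteal replicate 3 (0.04) or post-ovulatory replicate 2 (0.34).

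ANGPT1 (ENSSSCG00000006035; chromosome 4, 29925203 to 30233434), the activating ligand of TEK, stood at 3.16, 39.7 and 9.97 CPM in the early luteal replicates and at 3.13, 4.29 and 7.55 CPM in the post-ovulatory ones. One library, early luteal replicate 2, made its higher mean (17.6 ± 19.4 CPM in early luteal against 4.99 ± 2.29 CPM in post-ovulatory ampullae; SD, n = 3 each). The log2 fold change was 1.80 ± 0.85 (SE), and 0.38 without that library.

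ANGPT2 (ENSSSCG00000015753; chromosome 15, 37544177 to 37600925), the opposing ligand, stood at 17.5, 18.4 and 7.71 CPM in the early luteal and at 8.79, 11.9 and 17.4 CPM in the post-ovulatory replicates. The stages covered almost the same range (log2 fold change 0.19 ± 0.47, SE), and the direction turned without early luteal replicate 2 (-0.01) or post-ovulatory replicate 1 (-0.03) and with limma voom with quality weights (-0.57). The RefSeq interval of ANGPT2 lies within that of MCPH1, which stood at 4.34 ± 1.99 CPM in early luteal ampullae and 5.19 ± 2.47 CPM in post-ovulatory ampullae.

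**Figure D2:**
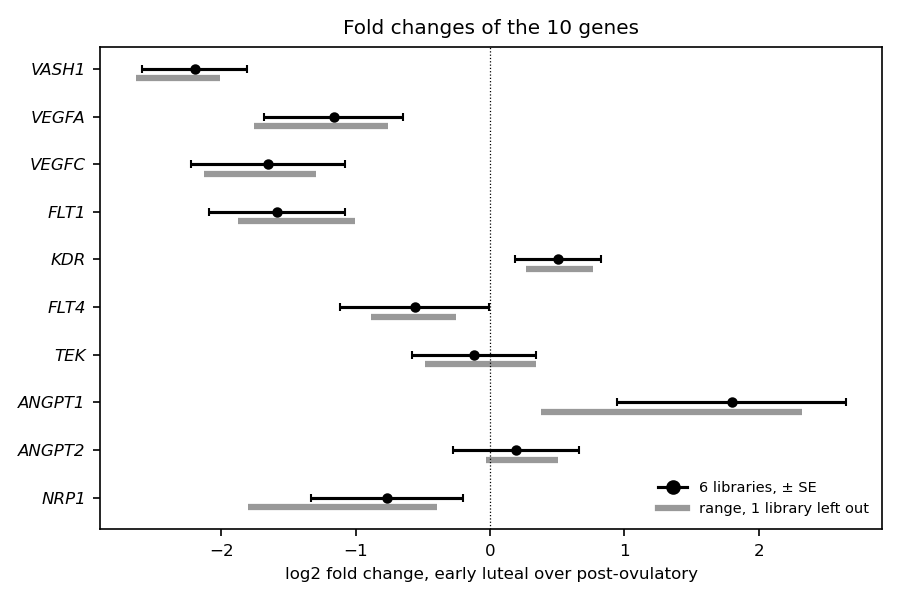
Log2 fold change (early luteal over post-ovulatory) of the 10 genes from edgeR with its SE as a bar, and below it in grey the range when each of the 6 libraries is left out. The ranges of VASH1, VEGFA, VEGFC and FLT1 stay below 0, whereas those of TEK and ANGPT2 span 0 and that of ANGPT1 reaches from 0.38 to 2.32.

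Ratios within a library show the same contrast without the scaling between libraries, since both genes share one total. Each ratio is of CPM, so only its change between libraries can be read. KDR over FLT1 was 15.1, 16.4 and 10.7 in the early luteal and 3.73, 2.58 and 4.24 in the post-ovulatory replicates. KDR over VASH1 was 8.72, 12.8 and 13.4 in the early luteal and 1.02, 2.36 and 1.68 in the post-ovulatory replicates. In both, every early luteal library lay above every post-ovulatory one, early luteal replicate 2 included. VEGFA over KDR ran the other way, at 0.274, 0.0763 and 0.221 in the early luteal against 0.803, 0.526 and 0.683 in the post-ovulatory replicates. TEK over KDR was lower in every early luteal library too (0.280, 0.207 and 0.198, against 0.324, 0.422 and 0.307 in the post-ovulatory replicates), although the level of TEK itself overlapped. Relative to KDR, which had the higher mean in early luteal tissue, VASH1, VEGFA, FLT1 and TEK were thus all lower there. A higher KDR lowers any gene set against it, and VEGFC and NRP1 were not set against KDR. How many of all tested genes separate the stages on this scale was not counted, so nothing particular to these genes is read from it.

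VEGFA over VASH1 overlapped, at 2.39, 0.978 and 2.97 in the early luteal and 0.821, 1.24 and 1.15 in the post-ovulatory replicates. VEGFC over FLT4 overlapped too, at 1.28, 0.245 and 1.58 in the early luteal and 1.47, 1.43 and 2.96 in the post-ovulatory replicates. ANGPT2 over ANGPT1 was even among the post-ovulatory libraries (2.81, 2.76 and 2.31) and uneven among the early luteal ones (5.55, 0.464 and 0.773). The early luteal libraries thus lay on both sides of the post-ovulatory ones.

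**Figure D3:**
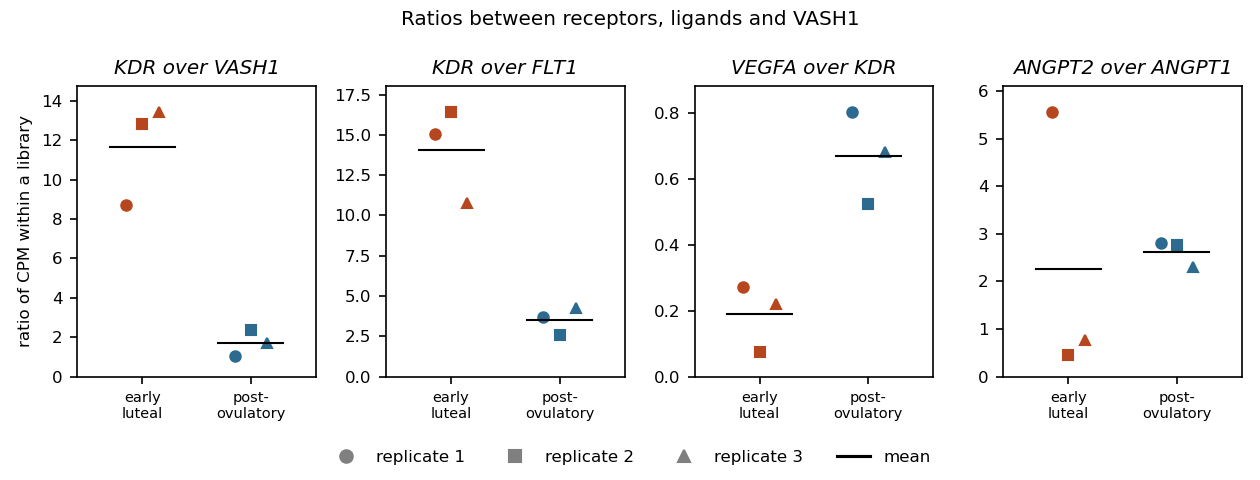
Ratio of CPM of gene pairs within each library (linear axis from 0), early luteal left and post-ovulatory right; the bar is the mean. KDR over VASH1 and KDR over FLT1 are higher in all 3 early luteal libraries, VEGFA over KDR is lower in all 3, and ANGPT2 over ANGPT1 spreads from 0.464 to 5.55 in early luteal tissue.

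Markers of endothelial cells, the cells that make most of these receptors, differed between libraries as well. Of 17 endothelial markers listed, 14 had a row, and 13 of the 14 had a log2 fold change below 0 (median -0.63), against 51.8% of all tested genes. That median rested on single libraries: it was -1.27 without early luteal replicate 1 and -0.27, with 10 of 14 below 0, without post-ovulatory replicate 2. None passed the threshold in edgeR or DESeq2, and 2 of the 14, both lower, had an unadjusted p under 0.05 in edgeR, against 7.11% of all tested genes. Their summed level was 387 to 505 CPM in early luteal ampullae and 407 to 659 CPM in post-ovulatory ampullae. The highest early luteal sum was that of replicate 2, where EMCN alone gave 434 of the 505 CPM, so the sum follows that gene in large part. The most abundant, EMCN, an endothelial sialomucin, went the other way, at 306 ± 112 CPM in early luteal ampullae and 211 ± 5.85 CPM in post-ovulatory ampullae, as KDR did. PECAM1, an adhesion molecule of endothelial junctions, stood at 24.2 ± 10.4 CPM in early luteal ampullae and 51.6 ± 31.4 CPM in post-ovulatory ampullae.

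The mean of the 14 markers (log2 CPM, centred per gene) was 0.40, -1.97 and -0.05 in the early luteal and 0.08, 1.14 and 0.40 in the post-ovulatory replicates. It was lowest in early luteal replicate 2, where the junction gene CLDN5 and the markers EGFL7 and ESAM had 0 counts (up to 0.406 CPM each), although that library held 79.9 CPM of KDR and 434 CPM of EMCN. It was highest in post-ovulatory replicate 2, the library that also held the highest level of FLT1, KDR, FLT4 and TEK of its stage. In tissue libraries of this kind fewer endothelial cells and less RNA of a gene per cell cannot be told apart. Early luteal replicate 2 also had the fewest genes detected (21658, against 23373 to 26524 in the other libraries). Its most abundant gene took the largest share of counts (7.40%, against 2.57% to 4.93%). The part of library quality in the low markers of early luteal replicate 2 was not tested.

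Relative to the mean of these markers within the same library, VASH1 overlapped between the stages, with early luteal replicate 2 above post-ovulatory replicate 2 and wholly lower without either of these libraries. Its log2 CPM minus the marker mean was -0.38, 0.99 and -1.005 in the early luteal and 1.61, 0.39 and 1.18 in the post-ovulatory replicates. FLT1 on this scale stood at -1.16, 0.64 and -0.69 in the early luteal and -0.24, 0.26 and -0.14 in the post-ovulatory replicates. In both, early luteal replicates 1 and 3 lay below all post-ovulatory libraries, and without early luteal replicate 2 there were 5 genes that separated the stages. VEGFA and VEGFC overlapped too, and KDR was the only one of the 10 to separate the stages with all 6 libraries, at 2.73, 4.64 and 2.71 in the early luteal and 1.65, 1.62 and 1.93 in the post-ovulatory replicates.

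The outcome on this scale turned on the 3 markers without a count in early luteal replicate 2. With the other 11 markers, a choice made after the zeros had been seen, 5 of the 10 genes separated the stages. Of all tested genes 18.9% separated the stages on that scale, 0.552% wholly lower and 18.3% wholly higher. With all 14 markers the share was 18.9% too, 0.485% wholly lower and 18.4% wholly higher. Nothing is read from the counts of the 10 genes beside these shares, since the choice of genes used this contrast. VASH1 then stood at -0.66, -0.27 and -1.38 in the early luteal and 1.27, -0.04 and 0.83 in the post-ovulatory replicates, lower in all early luteal libraries by a narrow gap. VEGFC and FLT1 were wholly lower as well, and KDR (2.34 to 3.39 in early luteal against 1.19 to 1.58 in post-ovulatory libraries) and TEK (0.01 to 1.12 against -0.31 to -0.05) wholly higher. VEGFA overlapped by either choice of markers.

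**Figure D4:**
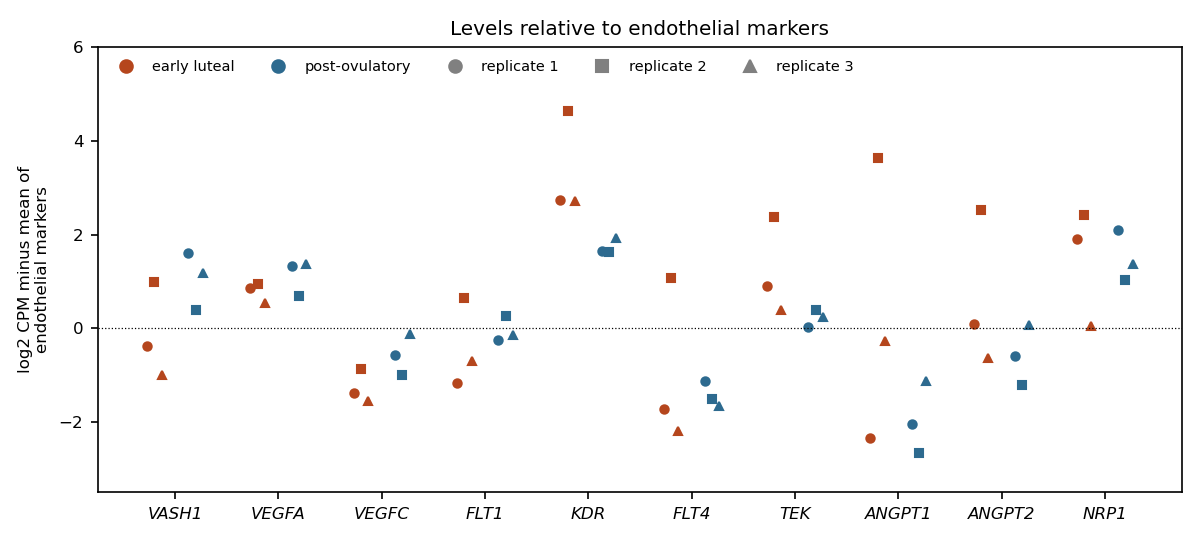
Log2 CPM of each gene minus the mean log2 CPM of the 14 endothelial markers in the same library, early luteal left and post-ovulatory right within each gene. KDR lies at 2.71 to 4.64 in early luteal and at 1.62 to 1.93 in post-ovulatory libraries; early luteal replicate 2 (square) is the highest early luteal library for every gene.

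Other cells that a piece of ampulla can hold were followed by their markers, and 0 of the genes in these lists passed the threshold in edgeR. Pericyte markers, led by NOTCH3 and PDGFRB, summed to 103 to 154 CPM in early luteal ampullae and 151 to 204 CPM in post-ovulatory ampullae, with 4 of 8 below 0. Lymphatic markers, led by PDPN and CCL21, summed to 22.1 to 77.9 CPM in early luteal ampullae and 48.9 to 95.4 CPM in post-ovulatory ampullae. The defining factor PROX1 had 4, 0 and 0 counts in the early luteal and 8, 5 and 13 in the post-ovulatory replicates. It did not pass the filter on low counts. Its levels (0 to 0.258 CPM in early luteal and 0.416 to 0.632 CPM in post-ovulatory libraries) are therefore poorly determined. Stromal markers, led by COL3A1 and DCN, did not overlap, with sums of 582 to 800 CPM in early luteal ampullae and 973 to 1915 CPM in post-ovulatory ampullae. Of the 8 stromal markers 7 were below 0 (median log2 fold change -0.71) and 5 wholly lower, against 9.57% of all tested genes. DESeq2 called 2 of the 8, against 0.986% of the genes it tested: COL1A1 (DESeq2 adjusted p = 0.00728) and PI16 (DESeq2 adjusted p = 0.0322). In edgeR the adjusted p was 0.554 for COL1A1 and 0.632 for PI16. Of the 8 markers 3 had an unadjusted p under 0.05 in edgeR, against 7.11% of all tested genes. PI16 had only 15, 7 and 7 counts in the early luteal replicates. Macrophage markers, led by C1QB and CSF1R, were below 0 in 7 of 7 (median -0.68), with sums of 48.4 to 148 CPM in early luteal ampullae and 82.7 to 160 CPM in post-ovulatory ampullae, and CD163 lay wholly lower. Markers of T and NK cells, led by PTPRC and CD247, were below 0 in 6 of 6 (median -0.33), with sums of 25.5 to 88.0 CPM in early luteal ampullae and 39.8 to 88.4 CPM in post-ovulatory ampullae. Single libraries moved these medians: without early luteal replicate 1 they were -1.26 for stroma, -1.33 for macrophages and -1.68 for T and NK cells. Without early luteal replicate 3 they were -0.48, -0.47 and -0.05. The macrophage median was nearest 0 without early luteal replicate 2, at -0.25, and the macrophage marker AIF1 had a log2 fold change of only -0.002. Smooth muscle markers, led by MYH11 and DES, summed to 982 to 9220 CPM in early luteal ampullae and 2848 to 5561 CPM in post-ovulatory ampullae, lowest in early luteal replicate 1. HBB, the haemoglobin gene of red blood cells, stood at 49.99 to 150.4 CPM in early luteal libraries and at 0.959 to 118 CPM in post-ovulatory ones. GP9, a platelet gene, stood at 4.72 to 6.64 CPM in early luteal libraries and at 1.89 to 10.2 CPM in post-ovulatory ones. Secretory and general epithelial markers, led by OVGP1 and EPCAM, summed to 2153 to 3820 CPM in early luteal ampullae. In post-ovulatory ampullae they summed to 1492 to 12677 CPM, and OVGP1 made most of that sum in replicates 1 and 3. Of these markers 3 were above and 3 below 0 (median log2 fold change -0.05). OVGP1 stood at 292 to 2356 CPM in early luteal libraries and at 7302, 156 and 10688 CPM in the post-ovulatory replicates. Ciliated markers, led by TPPP3 and DNAH5, summed to 1274 to 1448 CPM in early luteal ampullae and 1044 to 2202 CPM in post-ovulatory ampullae. The part of stromal, endothelial, epithelial and immune cell content in the lower VASH1, VEGFA, VEGFC and FLT1 was not tested.

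Of 6 lists of further genes of these pathways, 48 of 52 genes had a row and 46 were tested. By edgeR's quasi-likelihood test 0 of the 46 passed, with Benjamini-Hochberg adjusted p-values from 0.549 to 0.996. At an unadjusted p under 0.05 it counted 8, 7 higher and 1 lower in early luteal tissue, against 7.11% of all tested genes. DESeq2 called 1 of them, ADM, and limma voom with quality weights called 0. The median log2 fold change of the 46 was -0.04, with 22 above and 24 below 0, and 7 lay wholly higher and 3 wholly lower, against 7.61% and 9.57% of all tested genes.

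Among the other VEGF ligands and receptors, VEGFD, the second ligand of FLT4, had a log2 fold change of the opposite sign to that of VEGFC. It stood at 2.06, 4.06 and 2.86 CPM in the early luteal and 0.298, 0.632 and 0.799 CPM in the post-ovulatory replicates. The stages did not overlap. VEGFD passed the filter on low counts through its early luteal libraries, where it is high, so nothing is read from that separation. Its log2 fold change was 2.33 ± 0.70 (SE; edgeR adjusted p = 0.649), on few counts, with 4 and 5 in post-ovulatory replicates 1 and 2. VEGFB (log2 fold change -0.36), PGF, a ligand of FLT1 (-0.93), and the co-receptor NRP2 (0.69) overlapped.

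None of the 5 tested partners of TEK and VASH1 passed the threshold in edgeR or DESeq2, and 1, PTPRB, had an unadjusted p under 0.05 in edgeR. PTPRB, the endothelial phosphatase that restrains TEK, stood at 14.0, 5.96 and 11.1 CPM in the early luteal and 17.0, 32.0 and 24.2 CPM in the post-ovulatory replicates (log2 fold change -1.23 ± 0.44, SE; edgeR adjusted p = 0.677). All its early luteal libraries were below the post-ovulatory ones. TIE1, the sister receptor of TEK, had a log2 fold change of -0.86 ± 0.61 with overlap. VASH2, the paralog of VASH1, stood at 21.8, 6.64 and 13.6 CPM in the early luteal and 34.3, 49.0 and 13.3 CPM in the post-ovulatory replicates. Unlike VASH1, it overlapped, with post-ovulatory replicate 3 among the early luteal values. MATCAP1, another enzyme that removes the tyrosine of tubulin, had a log2 fold change of -0.62 ± 0.51.

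Of the other inhibitors of angiogenesis, none separated the stages the way VASH1 did, and the list split into 5 above and 4 below 0. The most abundant, TIMP3 and ADAMTS1, had log2 fold changes of -0.06 and 0.05. SEMA3A, a ligand that competes with VEGFA for NRP1, stood at 11.3 ± 6.81 CPM in early luteal ampullae and 3.15 ± 1.87 CPM in post-ovulatory ampullae (log2 fold change 1.85 ± 0.72, SE; edgeR adjusted p = 0.685). ISM1, a secreted inhibitor, stood at 32.7 ± 11.1 CPM in early luteal ampullae and 14.4 ± 6.70 CPM in post-ovulatory ampullae, and both overlapped between the stages. THBS2, named after its values were seen, lay wholly higher in early luteal tissue, by a log2 fold change of 0.53 ± 0.39.

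VEGFA is known as a gene that hypoxia induces. Of 13 tested genes of hypoxia sensing and response 0 passed the threshold in edgeR (3 at an unadjusted p under 0.05) and 1 in DESeq2, and 8 lay above 0 (median log2 fold change 0.41), against 48.2% of all tested genes. The list had 4 genes wholly higher and 1 wholly lower, against 7.61% and 9.57% of all tested genes. ADM, which encodes the vessel-relaxing peptide adrenomedullin, stood at 32.1, 118 and 65.0 CPM in the early luteal and 9.68, 12.1 and 17.3 CPM in the post-ovulatory replicates. All early luteal libraries were above all post-ovulatory ones, by 5.48-fold on average (log2 fold change 2.45 ± 0.49, SE; edgeR adjusted p = 0.549, DESeq2 adjusted p = 0.00136). ANKRD37, a target of the hypoxia factor HIF1A, stood at 34.1 ± 12.4 CPM in early luteal ampullae and 12.8 ± 3.27 CPM in post-ovulatory ampullae, again with no overlap (log2 fold change 1.41 ± 0.38, SE; edgeR adjusted p = 0.632). PDK1 and EGLN3, named after their values were seen, lay wholly higher too, and the HIF partner ARNT wholly lower (log2 fold change -0.28). The most abundant of the list, HIF1A and NDRG1, overlapped, with log2 fold changes of -0.25 and 0.24. SLC2A1, the glucose transporter that hypoxia induces, and EPAS1, the sister factor of HIF1A, had log2 fold changes of -0.28 and -0.83 with overlap; both were named after their values were seen.

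Genes that endothelial cells switch on or use downstream of VEGF showed no common direction, with 7 of 15 above 0 and a median log2 fold change of -0.02. RCAN1, a calcineurin inhibitor that VEGF induces, stood at 50.4, 110.4 and 110.0 CPM in the early luteal and 50.04, 36.9 and 31.9 CPM in the post-ovulatory replicates. The stages touched, with early luteal replicate 1 just above post-ovulatory replicate 1 (log2 fold change 1.19 ± 0.36, SE; edgeR adjusted p = 0.655). The Notch ligand JAG1 and the Notch target HEY2 had log2 fold changes of 0.35 ± 0.27 and 0.75 ± 0.34, with overlap. PLCG1, the signal transducer next to KDR, named after its values were seen, lay wholly lower (-0.71 ± 0.38). Immediate early genes, led by JUN and FOS, are a group sensitive to how tissue is handled. They summed to 459.6 to 1707 CPM in early luteal ampullae and 336 to 932 CPM in post-ovulatory ampullae. Of these genes 7 of 8 were above 0, with a median log2 fold change of 0.95. That median was 0.40 without early luteal replicate 3 and 1.30 without post-ovulatory replicate 2. Their part in the values of RCAN1 and of the other genes was not tested.

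**Figure D5:**
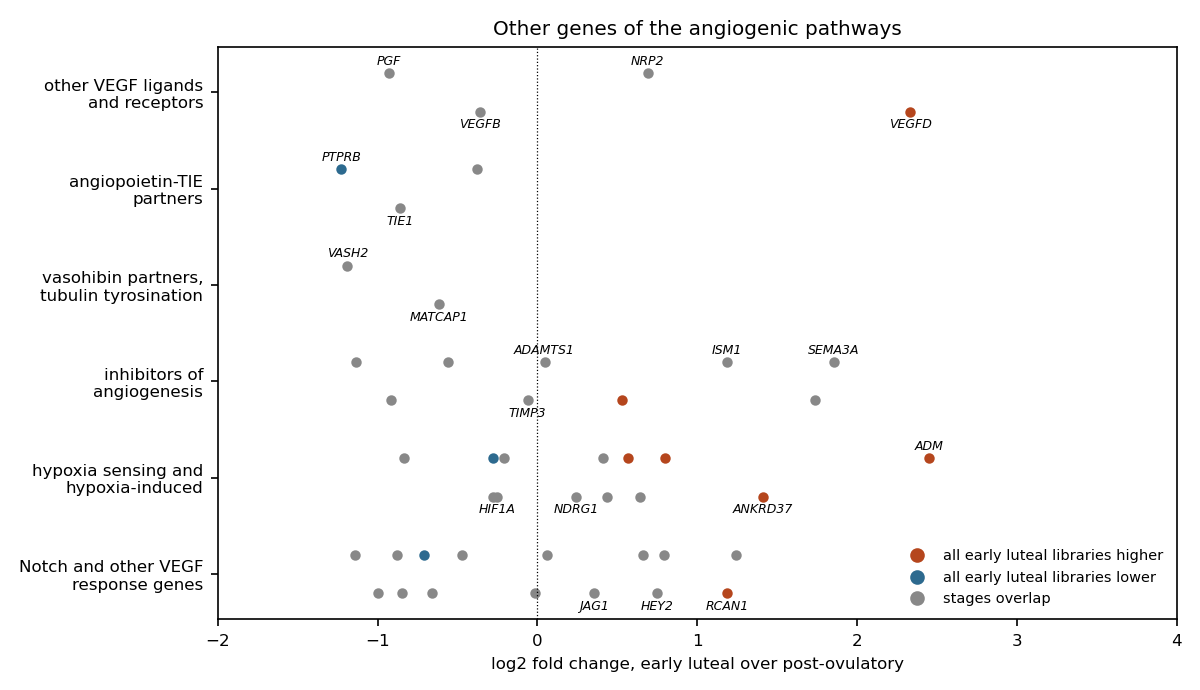
Log2 fold change (early luteal over post-ovulatory) of the 46 tested genes in 6 pathway lists; colour marks genes in which all early luteal libraries lie above or below all post-ovulatory ones. ADM (2.45) and VEGFD (2.33) lie farthest to the right and PTPRB (-1.23) farthest to the left, and none passed the threshold in edgeR.

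The pattern of VASH1 over the 6 libraries was compared with that of the other tested genes that have a symbol (12783 with VASH1 itself), by the root mean square difference of centred log2 CPM. The closest were SYNDIG1 (0.31), INSIG1 (0.33), SERPINH1 (0.36), SEC14L1 (0.37) and ECM1 (0.37). SYNDIG1 rests on 1 early luteal and 48 post-ovulatory counts and is poorly determined. INSIG1, a regulator of sterol synthesis, stood at 12.7 ± 3.87 CPM in early luteal ampullae and 42.9 ± 9.46 CPM in post-ovulatory ampullae, and SERPINH1, a collagen chaperone, at 109.6 ± 33.2 CPM in early luteal ampullae and 373 ± 93.5 CPM in post-ovulatory ampullae. Of the other 9 genes VEGFC came closest to VASH1 (0.53), with 43 of all tested genes closer still, then VEGFA (0.67), NRP1 (0.69) and FLT1 (0.73). KDR (1.47) and ANGPT1 (2.22) were far from it. These distances use the same contrast that chose VASH1 and describe these libraries only.

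Within the stages the 10 genes peaked in different libraries. Early luteal replicate 1 held the highest early luteal value of 6 of them (VASH1, VEGFA, VEGFC, KDR, TEK and NRP1), and replicate 2 that of FLT4, ANGPT1 and ANGPT2. In post-ovulatory tissue replicate 2 was highest for 5 (VEGFA, FLT1, KDR, FLT4 and TEK), and replicate 3 for VEGFC, ANGPT1 and ANGPT2.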

How the data were processed

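Stranded poly(A) libraries of ampulla RNA gave paired Illumina reads, per the labels' protocols. The submitters' processing notes name the build Sscrofa11.1 and the tools STAR, Trim Galore and FastQC (0.11.4). The counting tool is not named there, nor its strand setting. The authors deposited whole-number counts per Ensembl gene, with no normalization, for 6 libraries. Its header lacks a tab, so columns were matched by the order of the header words. Symbols matched 15623 identifiers; positions are those of RefSeq for the same build.

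CPM are counts over the TMM-scaled library totals. Stages were compared by quasi-likelihood in edgeR (version 4.0.16, R 4.3.3, filterByExpr, robust estimates, two-sided, Benjamini-Hochberg over 17920 genes, threshold 0.05); the SE of a log2 fold change is its size over the square root of F. DESeq2 1.42.0 and limma 3.58.1 were alternatives. The script was tested on simulated data. Log2 CPM used a prior count of 2. Floors of 3 counts cover counting error only.

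The 10 genes and all lists were chosen with earlier results of these data known. Named in each pathway list were the 2 genes of highest mean CPM and the 2 of lowest edgeR p. In each marker list the 2 of highest mean CPM were named, and so were the 5 genes most like VASH1. Defining markers, markers at 0 and the markers COL1A1, PI16 and CD163 were added after their values were seen. Listed genes without a row under their symbol (SVBP, TTL, VHL, BNIP3, VWF and others) were not analysed here, and no sequence was used here.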

Additional observations from a re-analysis of the deposited data

How the results depend on the processing

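VASH1, VEGFA, VEGFC and FLT1 kept a log2 fold change below 0, and KDR one above 0, under every alternative run. Of the 10 genes 4 lay wholly on one side, against 3 with library totals alone and 4 to 6 with single libraries left out. Without single libraries the log2 fold change ran from -2.64 to -2.01 for VASH1, from -1.76 to -0.76 for VEGFA, from -2.13 to -1.30 for VEGFC, from -1.88 to -1.01 for FLT1, from 0.26 to 0.77 for KDR, from -0.89 to -0.26 for FLT4, from -0.49 to 0.34 for TEK, from 0.38 to 2.32 for ANGPT1, from -0.03 to 0.51 for ANGPT2 and from -1.80 to -0.40 for NRP1. With limma voom with quality weights ANGPT1 stood at 0.25 and ANGPT2, reversed, at -0.57; the cause was not tested. Over all genes edgeR called 0, also at an adjusted p of 0.1 and without each library in turn, but 8 with no filter on low counts; DESeq2 called 175 (1 other pathway gene, and of the 10 genes 1, VASH1, whose p-value in these libraries had brought it into the set, so that nothing is read from that call) and limma voom with quality weights 10. The replicate number as a block also gave 0 calls (1043 genes at an unadjusted p under 0.05, against 1275 without it) and a log2 fold change of -2.29 for VASH1 and 1.14 for ANGPT1. Same-numbered libraries correlated at 0.05, -0.08 and 0.13 in their deviations from the stage means. Of the 3 early luteal libraries 1 correlated best with its own number. With 3 libraries per stage such values cannot decide whether the numbers pair the samples. Relative to endothelial markers 1 of the 10 genes separated the stages, 1 to 5 with single libraries left out (5 without early luteal replicate 2 or post-ovulatory replicate 2) and 5 with the markers that had a count in every library. Low counts limit the precision of VEGFC, FLT4, VEGFD, PROX1 and PI16.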
